A study of Mus musculus with 2 samples.

Results

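The neuregulins and the ErbB receptors were described in hippocampus of 10-day-old mice as 8 genes chosen by name: the ligand genes Nrg1, Nrg2, Nrg3 and Nrg4 and the receptor genes Egfr, Erbb2, Erbb3 and Erbb4. All 8 were found among the 55536 annotated genes of the deposited gene tables. The rule names the genes and uses no measured value.

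Neuregulins are made as membrane proteins that carry an EGF-like domain, are cut by proteases and bind ErbB3 or ErbB4 on a neighbouring cell. ErbB2 has no known ligand and acts as a partner of the other receptors, ErbB3 has an impaired kinase, and EGFR binds EGF and its relatives but not the neuregulins. In cortex and hippocampus, ErbB4 is known mainly from GABAergic interneurons, and the pathway is studied for interneuron wiring, synaptic plasticity and myelination.

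The study holds total RNA sequencing of 1 group with 2 biological replicates, tissue labelled as a layer of hippocampus from B6CASTF1/J mice, a first-generation cross of C57BL/6J with CAST/EiJ, aged 10 days. Each library began with 300 ng of RNA, ERCC spike-ins for stranded ribosome-reduced libraries were added, and each label names 3 males without stating whether their tissue was pooled. No treatment, genotype or other condition was compared, so levels are given in each library, with their spread and with the ratio of replicate 2 over replicate 1. The labels give both libraries one donor entry but different running numbers of animals, so the spread between them may be technical as well as biological.

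Replicate 1 held 32035705 expected counts in all and replicate 2 held 29747193. Xist, the RNA of the inactive X chromosome, had 25 and 30841 counts, and the Y-linked gene Ddx3y had 2164 and 0. The Y-linked genes Eif2s3y, Uty and Kdm5d had 1302, 764 and 991 counts in replicate 1 and 0, 1 and 2 in replicate 2. The counts of replicate 2 thus conflict with its label of 3 males. Whether the label or the sample is wrong cannot be settled here, so the second library is called the library labelled male, replicate 2. In none of 15 cell type marker lists was a gene at 0 counts in both libraries. GABAergic markers summed to 643.6 and 639.1 TPM, a level scaled by transcript length and library total, with Sst highest. Glutamatergic markers summed to 2086 and 2263 TPM (Camk2a highest), immature neuron markers to 1446 and 1286 (Stmn2), astrocyte markers to 1217 and 1301 (Slc1a2), radial glia markers to 394 and 399 (Fabp7) and oligodendrocyte precursor markers to 203 and 206 (Olig1). Myelin markers differed more, at 206.4 and 351.9 (Mbp), as did red blood cell markers at 958 and 566 (Hbb-bs) and choroid plexus markers at 5.64 and 19.4 (Sostdc1). The remaining lists were between 14.7 and 183 TPM in each library: meninges (Igf2), microglia (Csf1r), endothelial cells (Cldn5), pericytes (Rgs5), thalamus (Prkcd) and striatum (Ppp1r1b). In bulk tissue, fewer cells of a type and less RNA per cell cannot be told apart.

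Nrg3 was the most abundant ligand and Erbb4 the most abundant receptor in both libraries. Nrg3 stood at 31.8 ± 1.35 TPM (SD, n = 2 here and below), Erbb4 at 18.1 ± 0.361, Egfr at 9.21 ± 1.22 and Nrg1 at 8.09 ± 0.863. Nrg2 at 4.005 ± 0.587 and Erbb2 at 1.41 ± 0.0707 followed, and the estimates for Erbb3 and Nrg4 were below 1 TPM in both libraries. For scale, 13062 of 22015 nuclear protein-coding genes (59.3%) reached 1 TPM in both libraries, and their median was 15.7 TPM, so 2 of the 8 genes were above that median. Among neighbours in this order, the Egfr and Nrg1 values overlapped, as did those of Erbb3 and Nrg4, and the other neighbours were separate in both libraries.

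**Figure D1:**
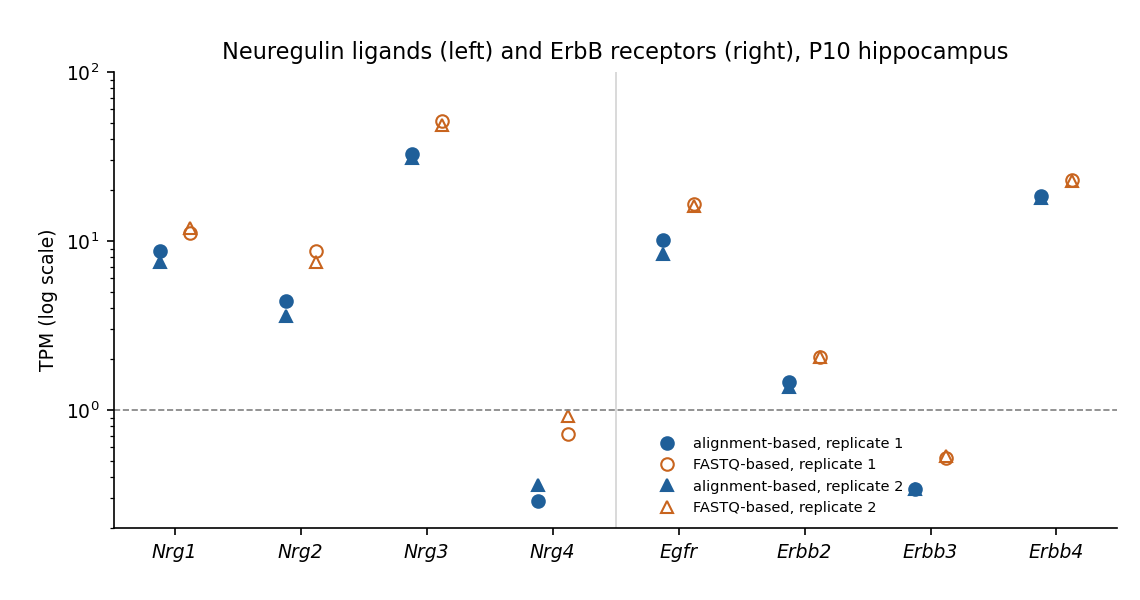
TPM (log axis) of the 4 neuregulin genes and 4 receptor genes in each library, from the alignment-based table (filled) and the FASTQ-based table (open), with 1 TPM dashed. Nrg3 and Erbb4 lead their groups by both tables, and Nrg4 and Erbb3 lie under the dashed line.

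Nrg1 encodes the founding ligand of the family, which binds ErbB3 and ErbB4. The gene (ENSMUSG00000062991.7, chr8:31814551-32884029, minus strand, mm10) had 514 counts and 8.70 TPM in replicate 1 and 451 counts and 7.48 TPM in replicate 2. It ranked 9116th among nuclear protein-coding genes by mean TPM.

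Alternative first exons give Nrg1 proteins different amino-terminal parts, so the start codons of the 3 groups of first exons are shown, each as the first 30 coding bases with the start codon in capitals. Distances run from the first exon to the shared exon of 130 bases that begins the EGF-like domain.
farthest upstream start (Nrg1-218, chr8:32883516-32884029): ATGgagcccgatgccaacagtagcggccgc
middle start (Nrg1-203, chr8:32009010-32009109): ATGtctgagcgcaaagaaggcagaggcaag
start next to the EGF exon (Nrg1-211, chr8:31917537-31918391): ATGgagatttatcccccagacatgtctgag
These lie 1034, 160 and 68.1 kb before that exon. The middle start is that of type I neuregulin, which has an immunoglobulin-like domain, and the nearest one is that of type III, whose cysteine-rich domain keeps the amino terminus in the membrane.

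The start next to the EGF exon held 45.9% of Nrg1 TPM in replicate 1 and 44.3% in replicate 2, a mean of 45.1% ± 1.09. Transcripts from the middle start held 34.9% and 37.4% (36.2% ± 1.73), and those from the farthest start 19.2% and 18.3% (18.7% ± 0.639). By alignment-based TPM the nearest start thus led in both libraries. In the FASTQ-based table it held 39.2% and 46.8%, against 43.6% and 40.3% for the middle start, so each led in 1 library.

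By expected counts, which are not divided by length, the middle start led with 58.8% and 59.1%, against 20.9% and 23.4% for the nearest one. Their exact 95% counting intervals were 54.4% to 63.0% and 54.3% to 63.6% for the middle start, and 17.4% to 24.6% and 19.5% to 27.5% for the nearest. Among protein-coding transcripts alone, the middle start also led by TPM, at 42.4% and 53.3% against 30.3% and 19.5%. The order of these 2 starts therefore depended on the unit, the table and which transcripts were counted. The farthest start held 20.3% and 17.6% by counts, 27.2% in both libraries among protein-coding transcripts, and 17.2% and 12.9% in the FASTQ-based table.

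The largest single contributor at the nearest start was Nrg1-204, a retained-intron model of 1502 bases, with 1.74 TPM and 52.8 counts in replicate 1 and 2.01 TPM and 56.9 counts in replicate 2. It took 20.0% and 26.8% of Nrg1 TPM. Together the retained-intron models of Nrg1 held 29.5% and 32.8% of its TPM and 16.4% and 16.3% of its counts. Nrg1-211, the protein-coding model of that start used above, had 0.57 and 0.80 TPM. The short coding model Nrg1-216, 407 bases long, was estimated at 5.78 counts and 0.87 TPM in replicate 1 and at 0 in replicate 2, a share of 10.0% and 0%. Nrg1-208, another short coding model of this start, had 0.42 and 0.17 TPM and reached 11.4% of the gene only in the FASTQ-based table of replicate 2.

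Nrg1-203 was the transcript with the largest share, at 27.4% and 29.5% of Nrg1 TPM, with 274 and 237 counts, and Nrg1-218 followed Nrg1-204 at 19.2% and 18.3% with 104 and 79.2 counts. Of 18 annotated Nrg1 transcripts, 7 were at 0 in both libraries and 3 held at least 10% in both.

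The last part of the EGF-like domain comes from an alpha or a beta exon, which set receptor affinity, the beta form being the stronger ligand. Both are shown in capitals, with 20 flanking bases of the neighbouring exons in lower case.
EGF alpha exon (68 bases, chr8:31838261-31838328): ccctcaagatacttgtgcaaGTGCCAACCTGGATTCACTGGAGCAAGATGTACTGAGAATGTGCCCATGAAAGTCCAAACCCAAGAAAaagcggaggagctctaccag
EGF beta exon (59 bases, chr8:31837670-31837728): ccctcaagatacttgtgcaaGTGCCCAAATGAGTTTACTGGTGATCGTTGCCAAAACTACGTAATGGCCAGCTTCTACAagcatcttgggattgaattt
Among transcripts with exactly one of them, those with the beta exon held 90.7% and 89.3% of TPM and those with the alpha exon 9.30% and 10.7%. The alpha group rested on 16.1 and 22.7 estimated counts. Of these, Nrg1-213 had 8.86 and 19.98 counts (0.15 and 0.37 TPM), and the short model Nrg1-208 had 7.27 and 2.68 (0.42 and 0.17 TPM). In the FASTQ-based table the alpha share was 6.19% and 25.3%, so both tables had beta in the lead but did not fix the alpha share. In that table Nrg1-208 had 0 TPM in replicate 1 and 1.35 of the 2.22 alpha TPM in replicate 2. These exon groups covered 70.5% and 67.2% of Nrg1 TPM.

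**Figure D2:**
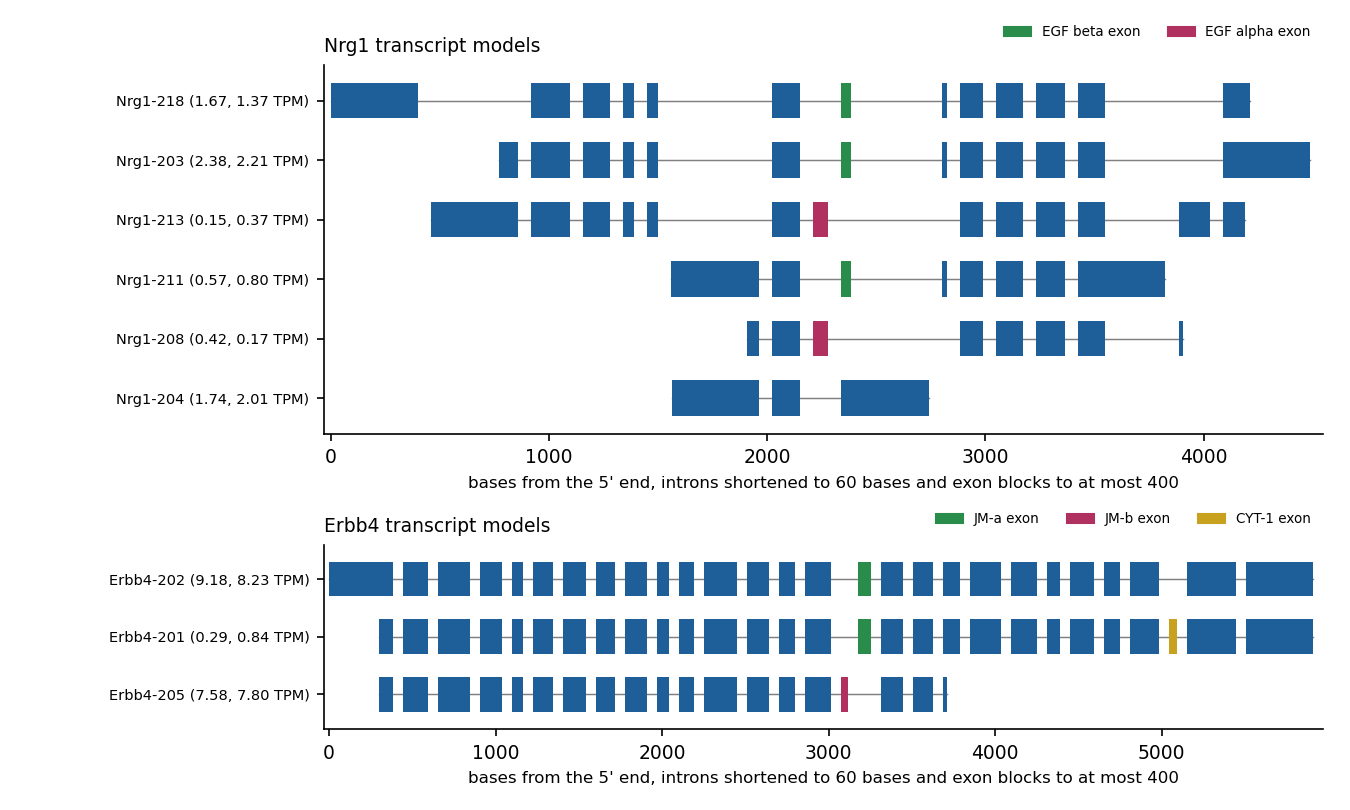
Exon models of 6 Nrg1 and 3 Erbb4 transcripts drawn from the 5′ end in bases, with introns shortened to 60 bases and exon blocks to at most 400, and the TPM of replicates 1 and 2 in the labels. The 3 Nrg1 starts, the early end of Erbb4-205 and the single model with the CYT-1 exon can be seen.

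Nrg2 encodes a ligand of ErbB3 and ErbB4 that is close to Nrg1 in domain order. The gene (ENSMUSG00000060275.13, chr18:36017652-36197380, minus strand) had 173 counts and 4.42 TPM in replicate 1 and 149 counts and 3.59 TPM in replicate 2. Nrg2-203, its one model longer than 1000 bases, held 158 and 134 of those counts but only 55.8% and 62.5% of the TPM.

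The other Nrg2 models are short, and few reads moved them far on the TPM scale. Nrg2-204, of 328 bases, was estimated at 4.97 counts and 1.00 TPM in replicate 1, which was 22.7% of the gene, and at 0 in replicate 2. Nrg2-202 had 16.8% and 20.8% of TPM from 8.51 and 8.00 counts. Nrg2-201 had 0% and 9.17%, but 37.2% and 20.8% in the FASTQ-based table, and Nrg2-205 had 4.76% and 7.50%, with 26.9% in the FASTQ-based table of replicate 2. All models under 1000 bases together took 44.2% and 37.5% of Nrg2 TPM and 8.75% and 10.2% of its counts. Without them the gene stood at 2.46 and 2.25 TPM.

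Nrg3 encodes a brain-enriched ligand that binds ErbB4 alone. The gene (ENSMUSG00000041014.17, chr14:38368952-39473088, minus strand) had 2316 counts and 32.72 TPM in replicate 1 and 2054 counts and 30.81 TPM in replicate 2. It held 70.9% and 72.9% of the summed ligand TPM (71.9% ± 1.42), against 18.3% ± 0.814 for Nrg1, 9.04% ± 0.765 for Nrg2 and 0.740% ± 0.158 for Nrg4. The sum itself was 46.13 and 42.24 TPM.

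The main Nrg3 transcripts differ in length and by a cassette exon of 72 bases near the 3′ end, shown in capitals above the junction without it.
Nrg3 cassette exon (Nrg3-201, chr14:38371277-38371348): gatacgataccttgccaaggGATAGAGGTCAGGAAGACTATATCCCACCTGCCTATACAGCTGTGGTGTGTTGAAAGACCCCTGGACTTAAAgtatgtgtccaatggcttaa
junction without the exon (Nrg3-203): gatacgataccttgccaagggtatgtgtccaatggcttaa
Among the 3 coding models the form with the exon, Nrg3-201, held 63.1% and 65.7% of TPM (64.4% ± 1.89). Of all Nrg3 TPM, Nrg3-201 had 53.8% and 55.2%, Nrg3-203 had 25.9% and 21.9%, and the retained-intron model Nrg3-204 had 14.7% and 16.0%. Nrg3-204 carried 366 and 348 counts, more than Nrg3-203 in replicate 2 (277) and fewer in replicate 1 (375). The form with the exon led in both libraries by TPM, by counts (76.6% and 78.6%) and in the FASTQ-based table (55.4% and 57.9%). Nrg3-201 is 4011 bases long, and the coding models without the exon, Nrg3-202 and Nrg3-203, are 2175 and 2137 bases long. The share thus also reads the other differences between these models, not the cassette exon alone.

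Nrg4 encodes a ligand of ErbB4 best known from brown fat. The gene (ENSMUSG00000032311.17, chr9:55220222-55326844, minus strand) had 8 and 6 counts, 0.29 and 0.36 TPM. None of these reads was assigned to a model annotated as protein-coding in either table. They were spread over Nrg4-209 (6 and 0 counts), Nrg4-212 (1 and 1), Nrg4-207 (1 and 2), Nrg4-205 (0 and 1), Nrg4-210 (0 and 1) and Nrg4-201 (0 and 1), the first being a processed transcript. The deposited interval of the gene, 0.619 to 1.89 TPM in replicate 1, did not contain its own TPM of 0.29, and in replicate 2 the interval of 0.658 to 2.04 did not contain 0.36, so the level of Nrg4 is uncertain and may lie on either side of 1 TPM. Fbxo22 overlaps Nrg4 on the other strand and had 752 and 726 counts, and strandedness of the counting was not given in the sources used here.

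Erbb4 encodes the receptor that binds all 4 neuregulins. The gene (ENSMUSG00000062209.15, chr1:68032186-69108059, minus strand) had 2805 counts and 18.37 TPM in replicate 1 and 2515 counts and 17.86 TPM in replicate 2. Erbb4 held 60.7% and 64.0% of the summed TPM of the 4 receptors (62.4% ± 2.29), followed by Egfr at 31.6% ± 2.39, Erbb2 at 4.85% ± 0.0317 and Erbb3 at 1.17% ± 0.0664. Beside it, Gad1, the GABA-synthesising enzyme gene of interneurons, stood at 93.89 and 94.25 TPM, and whether Erbb4 came from those cells was not tested.

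Erbb4 proteins differ next to the membrane, where the JM-a exon allows cleavage by ADAM17 and the JM-b exon does not. Both exons are shown in capitals between the same flanking bases.
JM-a exon (75 bases, chr1:68290243-68290317): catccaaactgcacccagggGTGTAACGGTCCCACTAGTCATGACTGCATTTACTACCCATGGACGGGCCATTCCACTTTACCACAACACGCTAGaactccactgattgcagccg
JM-b exon (45 bases, chr1:68290439-68290483): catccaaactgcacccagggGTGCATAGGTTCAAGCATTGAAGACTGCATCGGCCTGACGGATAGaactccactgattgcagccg
Transcripts with the JM-a exon held 55.5% and 53.8% of TPM and the one with JM-b 44.5% and 46.2% (45.3% ± 1.26). By counts JM-b was 12.3% and 13.1%, with exact intervals of 11.2% to 13.6% and 11.8% to 14.5%. In the FASTQ-based table it was 36.7% and 38.1%.

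The JM-b share rests on a single model. Erbb4-205 is 2196 bases long with 19 exons and ends soon after the alternative exon, whereas the JM-a models are 11782 and 12037 bases long. It had 345 and 329 counts and 7.58 and 7.80 TPM, and 41.3% and 43.7% of the gene's TPM. Any read on the exons it shares with the other models could be assigned to it, so its share also reads the early end of the model, not the JM-b exon alone.

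Within the cell, ErbB4 occurs with or without the stretch encoded by the CYT-1 exon, which carries binding motifs for PI3-kinase and for WW-domain proteins. The exon is shown in capitals, above the CYT-2 junction that lacks it.
CYT-1 exon (48 bases, chr1:68043908-68043955): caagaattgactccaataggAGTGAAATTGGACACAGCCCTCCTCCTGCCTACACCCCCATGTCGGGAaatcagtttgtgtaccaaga
CYT-2 junction: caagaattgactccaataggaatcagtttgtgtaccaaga
The form without the exon led in both libraries. Erbb4-202, the CYT-2 model, had 9.18 and 8.23 TPM from 2376 and 1979 counts, and Erbb4-201, the CYT-1 model, had 0.29 and 0.84 TPM from 73.3 and 198 counts. The CYT-1 share was 3.06% in the first library and 9.26% in the second (6.16% ± 4.38).

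By counts the CYT-1 share was 2.99%, with an exact interval of 2.34% to 3.73%, and 9.08%, with an interval of 7.92% to 10.4%. These intervals cover counting error and not the assignment of reads between models. The deposited TPM intervals of Erbb4-201, 0.0765 to 0.796 and 0.416 to 1.33, overlapped. In the FASTQ-based table the shares were 1.65% and 7.51%. CYT-2 was thus above 90% in each library by all 3 measures. The CYT-1 share was higher in the second library by all 3, with count intervals that did not overlap and deposited TPM intervals that did, and each TPM estimate lay outside the other library's interval. Only 51.6% and 50.8% of Erbb4 TPM lay on models that reach this site, and the pair also differ in the length of the first exon.

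**Figure D3:**
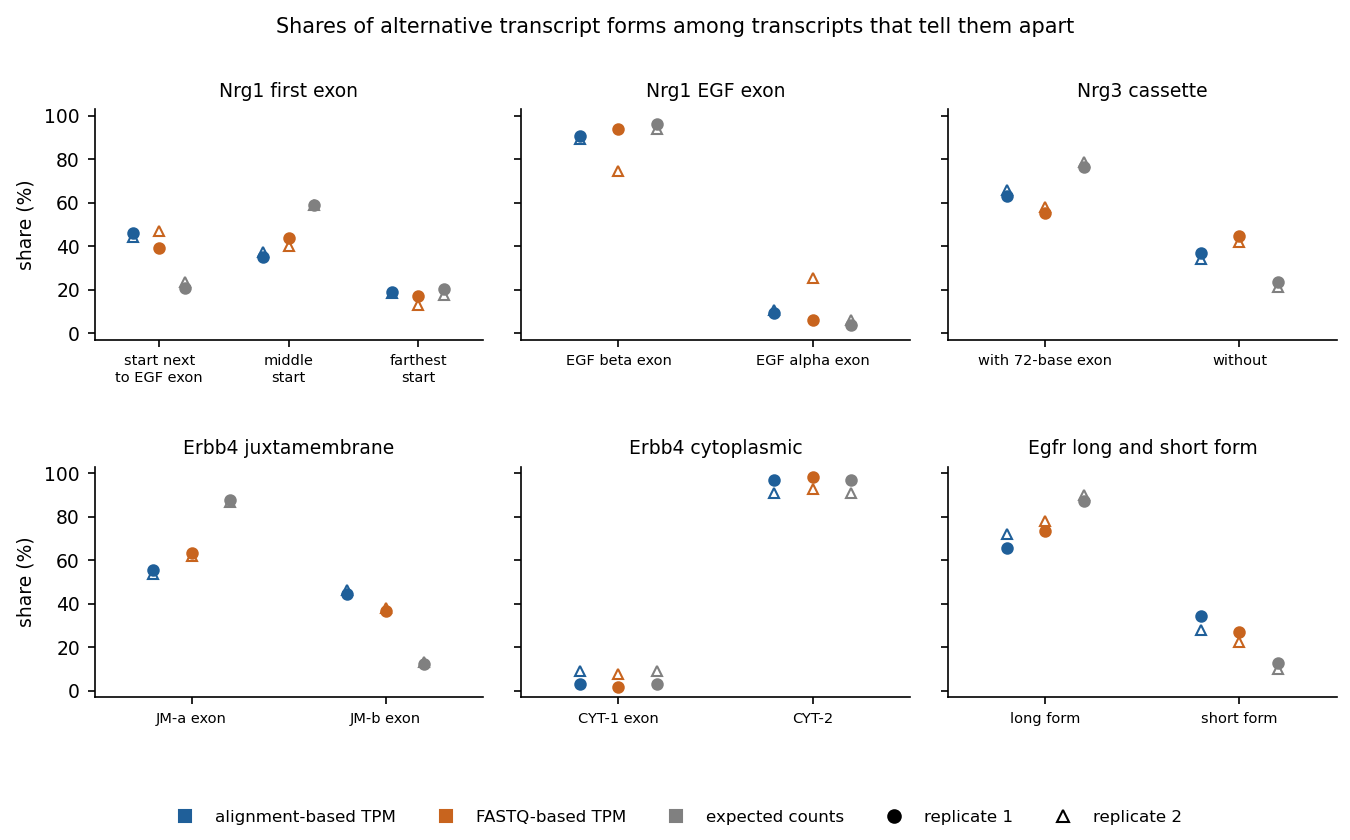
Share in percent of each alternative form among the transcripts that tell the forms apart, for each library (circle, triangle) by alignment-based TPM, FASTQ-based TPM and expected counts. CYT-2, the EGF beta exon and the Nrg3 cassette lead by every measure, while the leading Nrg1 start changes between measures.

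Egfr encodes the receptor of EGF and its relatives. The gene (ENSMUSG00000020122.16, chr11:16752203-16918158, plus strand) had 1269 counts and 10.07 TPM in replicate 1 and 1244 counts and 8.35 TPM in replicate 2. On the log2 scale the TPM ratio of replicate 2 over replicate 1 was -0.27 while the scaled count ratio was 0.08, so the sign depended on the unit. The effective length deposited for the gene was 5812 and 7399 bases.

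Egfr-204, a processed transcript of 716 bases, accounted for this difference in arithmetic: it was estimated at 30.8 counts and 2.30 TPM in replicate 1 and at 0.95 counts and 0.08 TPM in replicate 2, a share of 22.9% and 0.958%. Its deposited intervals, 1.01 to 3.74 and 2.99e-05 to 1.64 TPM, overlapped. Without models under 1000 bases Egfr stood at 7.49 and 7.61 TPM. In the FASTQ-based table Egfr-204 held 39.4% and 27.4% of the gene.

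The main Egfr models are the receptor of 28 exons, Egfr-201, with 48.8% and 65.6% of TPM, and Egfr-202, with 25.6% and 25.5%. Egfr-202 stops after 16 exons, before the exons of the transmembrane and kinase parts. Its last exon reads on past the splice site of the long form for 43 coding bases, shown in capitals after the shared ones.
Egfr-202 last exon, coding part (chr11:16887141-16887228): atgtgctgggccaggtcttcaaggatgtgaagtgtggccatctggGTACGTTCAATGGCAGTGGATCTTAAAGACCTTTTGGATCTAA
Of the TPM of these 2 models the short form took 34.4% and 28.0% (31.2% ± 4.57). By counts, of which it had 159 and 122, the short form took 12.9% and 9.86%. The long form led in each library by TPM, by counts and in the FASTQ-based table.

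Erbb2 encodes the receptor with no known ligand. The gene (ENSMUSG00000062312.5, chr11:98412470-98437716, plus strand) had 153 counts and 1.46 TPM in replicate 1 and 128 counts and 1.36 TPM in replicate 2. The coding model Erbb2-201 held 85.6% and 60.3% of TPM and the processed transcript Erbb2-202 held 14.4% and 39.7%. Their deposited intervals overlapped between the libraries, at 0.758 to 1.52 and 0.374 to 1.27 TPM for Erbb2-201. Mien1 overlaps the gene on the other strand and had 678 and 653 counts, which limits the Erbb2 value if counting ignored strand.

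Erbb3 encodes the receptor through which neuregulins act on the myelinating cells of nerves. The gene (ENSMUSG00000018166.8, chr10:128567523-128589652, minus strand) had 44 and 40 counts on its single model, Erbb3-201, and 0.34 TPM in both libraries. Sox10, a transcription factor gene of the oligodendrocyte lineage, stood at 16.0 and 18.2 TPM in the same libraries and Mbp, the myelin basic protein gene, at 89.23 and 161.2. Erbb3 was thus at the same low level in both libraries although Mbp was not.

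Within each library the ligands were more abundant than the receptors that bind them. The summed TPM of Nrg1 to Nrg4 over that of Erbb3 and Erbb4 was 1.30 in replicate 1 and 1.21 in replicate 2 on the log2 scale, with a pseudocount of 0.1 TPM, a mean of 1.25 ± 0.0616 or 2.38-fold. Nrg3 over Erbb4 was 0.83 and 0.78 (0.81 ± 0.0326), and Nrg1 over Erbb4 -1.07 and -1.24 (-1.16 ± 0.124). Nrg3 alone thus exceeded Erbb4 and Nrg1 did not. Divided by no length, the counts of Nrg3 were below those of Erbb4, at a log2 ratio of -0.28, and the ligand sum was close to the receptor sum at 0.07, so the excess of ligand is a statement about transcripts per length and not about reads.

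Between ligands, Nrg3 over Nrg1 was 1.90 and 2.03 on the log2 scale (1.96 ± 0.0911), Nrg1 over Nrg2 0.96 and 1.04 (1.00 ± 0.0547) and Nrg2 over Nrg4 3.53 and 3.00 (3.27 ± 0.375). Between receptors, Erbb4 over Erbb3 was 5.39 and 5.35 (5.37 ± 0.0286) and Erbb4 over Erbb2 3.57 and 3.62 (3.59 ± 0.0390). Erbb2 over Erbb3 was 1.83 and 1.73 (1.78 ± 0.0676), and Egfr over Erbb4 -0.86 and -1.09 (-0.97 ± 0.160). Ratios to the least abundant genes moved with the setting: Nrg2 over Nrg4 was 9.64-fold, 3.77-fold with a pseudocount of 1 TPM and 23.2-fold by counts, and Erbb4 over Erbb3 was 41.4-fold, 14.3-fold and 63.3-fold. Erbb2 over Erbb3 fell from 3.43-fold to 1.80-fold and Erbb4 over Erbb2 from 12.1-fold to 7.93-fold with that pseudocount, the latter being 18.98-fold by counts. Nrg1 over Nrg2 was 2.00-fold and 3.00-fold by counts, and Nrg1 over Erbb4 0.448-fold and 0.181-fold. Each ratio had the same sign in both libraries. The 2 libraries form 1 group, so no ratio was tested.

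**Figure D4:**
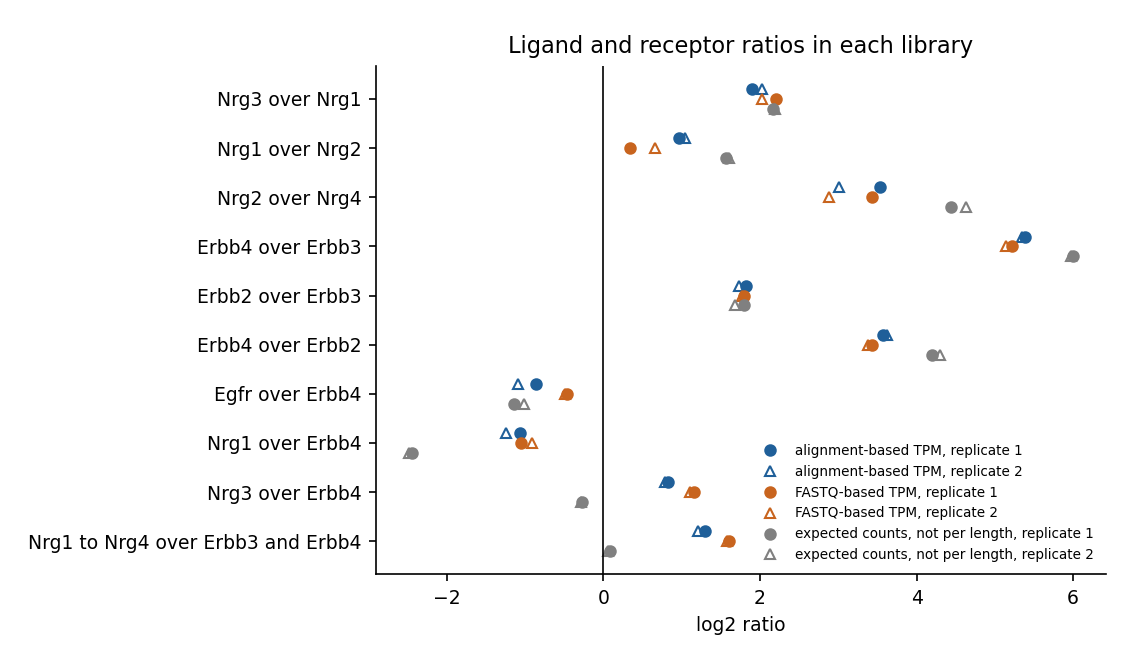
Log2 ratios of ligand and receptor levels in each library (filled, replicate 1; open, replicate 2) from alignment-based TPM, FASTQ-based TPM and expected counts. The libraries lie close together for most ratios, and farther apart for Nrg2 over Nrg4 by TPM and Nrg1 over Nrg2 by FASTQ-based TPM. Nrg3 over Erbb4 changes sign when length is not divided out.

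The FASTQ-based values were higher for all 8 genes, by 1.26-fold for Erbb4 to 2.53-fold for Nrg4, beside a median of 1.54-fold over 13035 detected protein-coding genes. Nrg2 at 8.73 and 7.47 TPM and Egfr at 16.6 and 16.0 TPM were also above that median fold, at 2.02 and 1.77. The order of the ligands and of the receptors was the same by both tables. The share of Erbb4 among the receptors was 54.6% ± 0.0835 and that of Egfr 39.2% ± 0.255, so Erbb4 led by less.

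Between the libraries, none of the 6 genes that averaged at least 100 counts passed the two-sided exact binomial test of edgeR-scaled counts at a Benjamini-Hochberg adjusted p under 0.05, and none had an unadjusted p under 0.05. Of all 12881 genes tested, 11.8% were called, 6.28% as higher and 5.49% as lower in replicate 2, and 0.303% at 2-fold or more. This test compares the reads of 2 libraries and covers counting error only. Egfr had a log2 ratio of 0.08 (95% interval -0.03 to 0.20, adjusted p = 0.414 by the exact test), Nrg3 -0.06 (-0.15 to 0.03, adjusted p = 0.450) and Erbb4 -0.04 (-0.12 to 0.03, adjusted p = 0.568). The intervals were wider for the less abundant genes: Nrg1 -0.08 (-0.26 to 0.11), Nrg2 -0.10 (-0.43 to 0.22) and Erbb2 -0.14 (-0.49 to 0.20).

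The median log2 ratio of these 6 was -0.07 and that of all genes tested 0.00026. From FASTQ-based counts 0 of the 6 were called and 1, Egfr, had an unadjusted p under 0.05 by the same exact test (p = 0.0155, adjusted p = 0.103). Erbb3, with a log2 ratio of -0.02 (-0.68 to 0.63), and Nrg4, with -0.27 (-2.11 to 1.41), were below the count minimum. Whether the sex-linked difference or the myelin difference between the libraries bears on these values was not tested.

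The pathway around these genes was read from 6 lists holding 75 genes, of which 74 matched by symbol (not Nrdc) and 67 were tested. Between the libraries 9 of the 67 were called, or 13.4%, which is near the 11.8% of all genes tested. Of these, 6 were higher and 3 lower in replicate 2, and 0 reached 2-fold. With the size factors of DESeq2 in place of TMM the split was 3 higher and 3 lower. The median log2 ratio was -0.0018, beside 0.00026 for all genes. The calls given below for single lists stand beside the same 11.8% of all genes tested.

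Among the other EGF family ligands, which bind EGFR, Tgfa led at 17.27 and 15.90 TPM, followed by Hbegf at 8.05 and 7.87 and Egf at 0.84 and 1.35, and Ereg was lowest with 0 and 1 counts. Of the 7 genes of this list 2 were at 1 TPM or more in both libraries, and 0 of the 2 tested were called. Tgfa alone was thus above both Egfr and Nrg1 in TPM. Of the neuregulin-like membrane proteins, Cspg5, also called neuroglycan C, stood at 183.7 and 179.7 TPM, Tmeff1 at 89.50 and 83.99 and Tmeff2, the lowest, at 18.83 and 17.33, with 0 of 3 called. Cspg5 exceeded the sum of the neuregulins in both libraries.

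Of 13 genes listed for the cleavage of neuregulins and ErbB4, 12 matched by symbol (not Nrdc). These 12, proteases and protease subunits, were all detected in both libraries. Bace1, the beta-secretase that cuts Nrg1, led at 45.79 and 44.08 TPM, followed by the gamma-secretase subunit genes Aph1a at 43.80 and 44.81 and Psenen at 39.03 and 40.76. Bace2 was lowest at 1.61 and 3.00 TPM. None of the 12 was called from expected counts. From FASTQ-based counts Bace2 was called higher in replicate 2, with a log2 ratio of 0.62 (adjusted p = 0.0146 by the exact test). Adam17, the sheddase of the JM-a form, stood at 9.64 and 11.7 TPM and was named after its value was seen.

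Among adaptors and downstream kinases, 32 of 33 genes were detected in both libraries. The Src-family kinase gene Fyn, among the 3 highest, stood at 105.5 and 109.2 TPM. Stat5a was lowest at 1.73 and 0.72 TPM, and its 97 and 52 counts left it under the count minimum. With the minimum lowered to a mean of 10 counts, Stat5a was called lower in replicate 2, with a log2 ratio of -0.78 (adjusted p = 0.0200 by the exact test). Of 32 tested, 4 were higher in replicate 2 and 2 lower, beside 6.28% higher and 5.49% lower among all genes tested. Of the higher ones, Map2k1, the gene of the kinase MEK1, was higher by 0.12 on the log2 scale and Akt2 by 0.16. Pik3r1 and Pik3r2, genes of regulatory subunits of PI3-kinase, had log2 ratios of -0.17 and -0.10 and were lower. Map2k1, Akt2, Pik3r1 and Pik3r2 were named after their values were seen.

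Of the negative regulators, Nedd4, a ubiquitin ligase gene, led at 153.2 and 152.4 TPM, followed by Stub1 at 75.90 and 73.53 and Rnf41, which encodes the ligase Nrdp1 that degrades ErbB3, at 34.07 and 31.76. Lrig3 was lowest at 1.36 and 1.82. Of 13 tested, 1 was called: Errfi1, a feedback inhibitor gene of EGFR and ErbB2, had 788 and 584 counts, 13.91 and 11.03 TPM, and a log2 ratio of -0.32 (adjusted p = 0.000988 by the exact test), and was named after its value was seen. Errfi1 had the largest absolute log2 ratio of the 9 called genes. Its receptors Egfr and Erbb2 were not called, as given above.

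The listed postsynaptic partners of ErbB4 were all detected in both libraries, 7 of 7. Dlg4, which encodes the scaffold PSD-95, stood at 321.7 and 334.0 TPM, the NMDA receptor subunit gene Grin2b at 167.9 and 162.8 and Dlg2 at 119.98 and 119.4, while Erbin, named for its binding of ErbB2, was lowest at 16.7 and 16.8. Dlg4 and Grin2b were called higher in replicate 2 with log2 ratios of 0.04 and 0.03, and with the size factors of DESeq2 neither was. For Grin2b the sign depended on the unit, since its TPM was lower in replicate 2, also in the FASTQ-based table at 216.5 and 190.1.

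**Figure D5:**
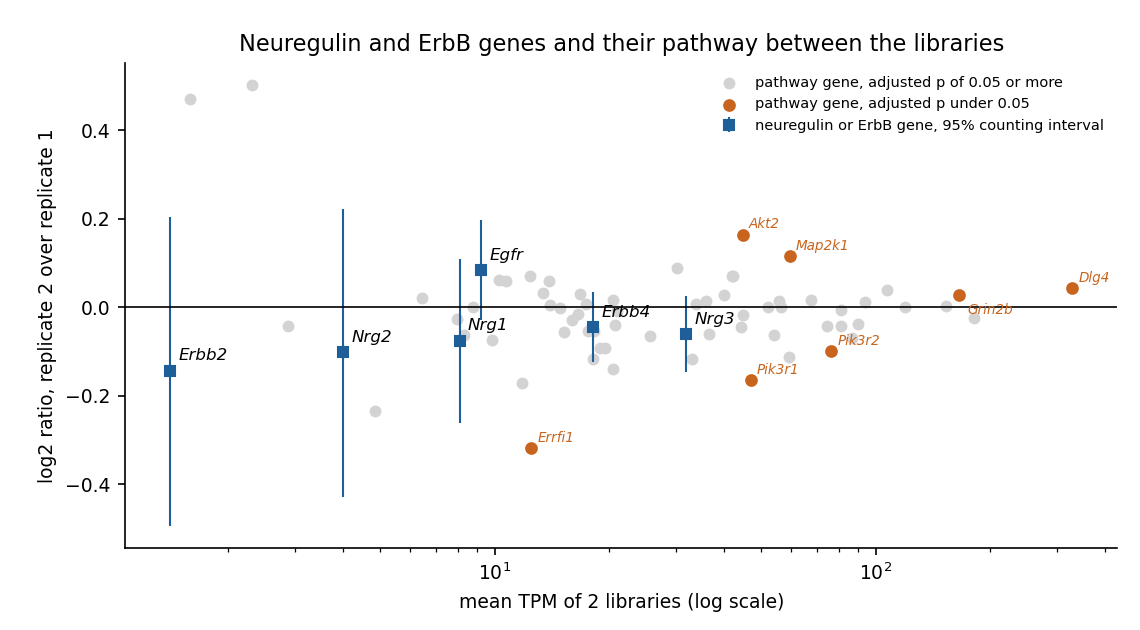
Log2 ratio of scaled counts, replicate 2 over replicate 1, against mean TPM (log axis) for 65 of the 67 tested pathway genes and the 6 tested neuregulin and ErbB genes with 95% counting intervals. The 7 called pathway genes drawn lie within 0.4 of 0, and the intervals of all 6 neuregulin and ErbB genes include 0.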

How the data were processed

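Per the deposited descriptions, the authors aligned total RNA reads to mm10 with GENCODE M21; which tools were run was not given in the sources used here. Deposited gene and transcript tables hold expected counts, not normalized, and TPM with interval bounds. A further deposited table holds estimated counts and TPM from the FASTQ file, summed here per gene. Of 81881 rows per gene table, only the 55536 annotated genes were kept, with 31920933 expected counts in replicate 1 and 29640307 in replicate 2. Rows whose name was a bare number, with 2.81e-05% and 2e-05% of counts, were among those dropped.

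Members and lists were chosen with earlier results of these data known. Expected counts were rounded, scaled by TMM (edgeR 4.0.16, R 4.3.3) and tested between replicates gene by gene with an exact binomial test (two-sided), adjusted by Benjamini-Hochberg over genes averaging at least 100 counts. Log2 ratios of counts use a prior count of 0.5. Share intervals are exact Clopper-Pearson, 95%. Reads without molecular identifiers are not independent molecules, so intervals cover counting error only. On simulated data the test called 96% of genes changed 1.5-fold and 0.071% of unchanged ones, of 12873 tested. The simulated libraries held counting noise only and no other variation between libraries. The 0.071% is therefore not a rate of false calls in the real pair.

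Exons were read from GENCODE M21 (GRCm38, mm10) and sequences from its transcripts; no protein sequences were used, and Nrg2 sequence is not shown. Named were all 8 genes, their transcripts with a share of at least 10% in any library by either table, and the 3 highest and the lowest gene of each pathway list, the highest of each marker list, and pathway genes called with an absolute log2 ratio of at least 0.5 (0 genes). Of the genes this rule names, 2 are not reported here, though list counts and medians include all members. Other genes and transcripts were named after their values were seen. The Nrg1 EGF exon, the Nrg3 cassette and the Egfr short form were added after the annotation was read. Alternatives were DESeq2 1.42.0 size factors, other filters and pseudocounts, FASTQ-based values, counts in place of TPM and single libraries. Tests ran in Python 3.11.15 with scipy 1.17.1, tables in numpy 2.4.6 with pandas 2.3.3, and plots in matplotlib 3.10.9.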

Additional observations from a re-analysis of the deposited data

How the results depend on the processing

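No paired analysis was possible because there was 1 group. With FASTQ-based TPM the log2 ratio of ligand sum over Erbb3 and Erbb4 was 1.59, the JM-b share 37.4% and the share of the Nrg1 start next to the EGF exon 43.0%. With counts not divided by length these were 0.069, 12.7% and 22.1%, and that Nrg1 share was 24.9% among protein-coding transcripts, an alternative chosen after seeing the data. The log2 ratio of Nrg3 over Erbb4 reversed to -0.28 by counts, and the log2 ratio of Erbb2 between the libraries, which was not called, reversed to 0.029 with FASTQ-based counts. Calls of the 6 tested genes stayed at 0 under each of 5 other settings. Pathway calls were between 6 and 11, and their share lay below or above that of all genes by setting. With DESeq2 size factors they were 6 of 67 (8.96%, beside 11.9% of all genes). With FASTQ-based counts they were 11 of 67 (16.4%, beside 11.9%), and with no count minimum 7 of 74 (9.46%, beside 5.11%). Single TPM levels moved with the table and with the denominator, and short transcript models with few reads limit the TPM shares of Nrg1, Nrg2, Nrg4 and Egfr.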
